A study of Mus musculus with 180 samples.

Results

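Early neural genes are genes whose RNA appears when cells of the epiblast take up a neural fate. The group described here was fixed as 8 symbols, Sox1, Sox3, Sox11, Meis2, Pax6, Map2, Ncam1 and Nes, matched to gene identifiers through the gene list of the embryoid body library. All 8 stand among the 31053 genes of that list and among the 12735 genes of the epiblast-like cell RNA table, and 7 stand among the 12730 genes of the embryonic stem cell RNA table, where Pax6 is not listed. The series compares C57BL/6J (B6) and DBA/2J (D2), inbred mouse strains, and asks how their genetic difference appears in the chromatin and RNA of pluripotent cells. Embryonic stem cells (ESCs) were derived and kept under naive conditions, the culture state closest to the early epiblast, and were turned into epiblast-like cells (EpiLCs), a state nearer to the onset of lineage choice. RNA was measured in each state in B6 lines B41, B44 and B51 (n = 3) and in D2 lines D29, D55 and DAC203 (n = 3), in ESCs of 3 B6D2F1/J hybrid lines (F116, F117 and F124), and in both states of 33 BXD lines, inbred descendants of a B6 by D2 cross with 1 library per line and state. Embryoid bodies (EBs), floating aggregates in which cells differentiate without an imposed fate, were made from mixed B6 and D2 samples and read as 1 pooled single-cell library. The labels give no allele or agent beyond the strains and culture states. EBs were taken after 48 h as EpiLCs, 48 h as aggregates of 750 cells and a further 48 h under rotation. Each replicate is a cell line of its own, and the sources used here do not say whether lines of a strain came from separate embryos.

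In vertebrate embryos SOX1 and SOX3 belong to the SOXB1 transcription factors, which mark neural progenitors and hold them in a dividing state, while SOX11 is a SOXC factor that drives neuronal gene expression as progenitors differentiate. MEIS2 is a homeodomain factor of the TALE class, and PAX6 is a paired-domain factor of the forebrain and eye. MAP2 binds microtubules of dendrites, NCAM1 is a cell adhesion molecule of neurons and other cells, and nestin, the product of Nes, is an intermediate filament of neural stem cells. None of these genes is restricted to neural tissue: Meis2 and Ncam1 are also used in mesoderm, and Sox3 and Sox11 RNA is found in the epiblast.

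All strain differences below are D2 minus B6 on the log2(normalized value + 1) scale, with a standard error (SE) and a Benjamini-Hochberg adjusted p from limma over all genes, and a gene is called at an adjusted p under 0.05. The normalized RNA values are the authors' own and stand near a library total of 1000000, from 902250 to 1115270 in ESCs and from 875065 to 1230020 in EpiLCs. The read numbers behind these values are unknown, and values of 1 gene are compared between libraries, not between genes. ESC and EpiLC values come from tables normalized separately. In ESCs 37.6% of 12694 genes tested were called, 17.3% higher and 20.3% lower in D2, and in EpiLCs 57.5% of 12692, 28.5% higher and 29% lower. Against these shares, 5 of 7 members were called in ESCs and 8 of 8 in EpiLCs, which makes a call by itself unremarkable here, and the size and direction are what the values below describe. The median difference of all genes was -0.04 in ESCs and 0.00 in EpiLCs.

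**Figure D1:**
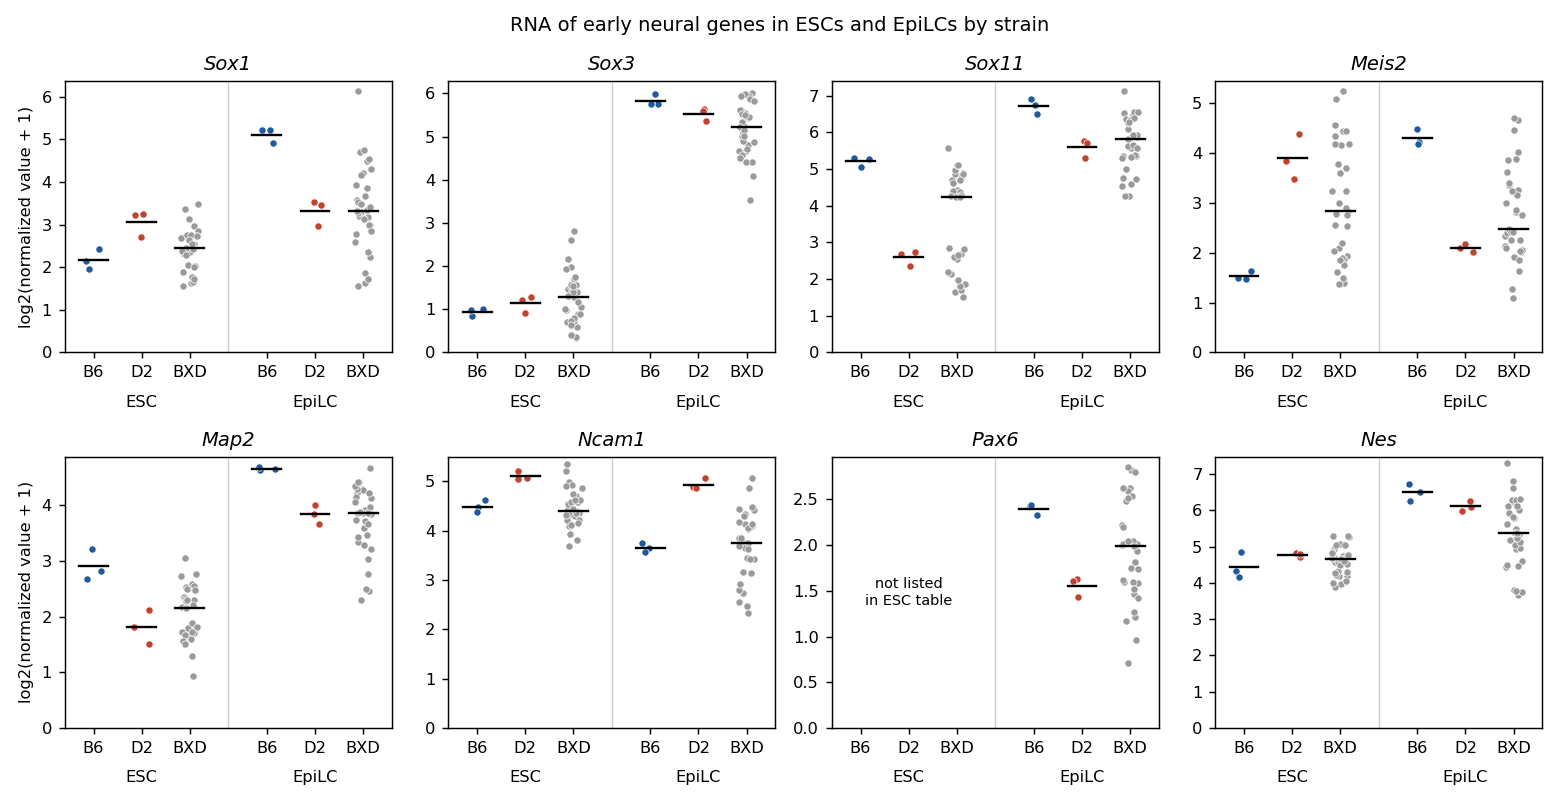
RNA of the 8 genes in every B6, D2 and BXD line, as log2(normalized value + 1) on the vertical axis, with ESCs to the left and EpiLCs to the right of the grey line in each panel. Each point is 1 line and bars are means for B6 and D2 and medians for BXD lines. Sox1 and Meis2 are higher in D2 in the left part and higher in B6 in the right part, and Pax6 has no ESC values.

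Sox1 and Sox3 behaved differently as ESCs. Sox1 (chr8:12395295-12400126, plus strand) read 3.42 in B41, 2.87 in B44 and 4.35 in B51, and 8.44 in D29, 8.36 in D55 and 5.53 in DAC203. Every D2 line was above every B6 line, and the difference was 0.89 (SE 0.19, adjusted p = 0.00596, limma). Sox3 (chrX:60891366-60893430, minus strand) was low in both strains, at 0.784, 1.02 and 0.972 in B6 and 1.33, 0.890 and 1.43 in D2. The strains overlapped, and the difference of 0.20 had an adjusted p of 0.40 (limma).

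In EpiLCs both SOXB1 genes were lower in D2. Sox1 stood at 36.2, 29 and 36.0 in B41, B44 and B51 and at 10.6, 9.99 and 6.76 in D55, D29 and DAC203, a difference of -1.79 (SE 0.15, adjusted p = 1.63e-06, limma). Sox3 stood at 53.0, 52.8 and 62.1 in B6 and at 47.2, 49 and 39.9 in the same order of D2 lines, and fell by 0.30 from B6 to D2 (SE 0.098, adjusted p = 0.0208, limma). The Sox3 call was lost without B51 (-0.22) and without DAC203 (-0.21). The change of direction between the states was tested as its own contrast, for which 36% of 11745 genes were called. For Sox1 the EpiLC difference minus the ESC difference was -2.68 (SE 0.26, adjusted p = 2.35e-06, limma). For Sox3 it was -0.50 (SE 0.18, adjusted p = 0.0406, limma), and with the cell line as a block the adjusted p was 0.0529. That call was also lost without the ESC library of B41, B51, D29 or DAC203 and without the EpiLC library of B41, B51, D55 or DAC203, at values from -0.41 to -0.53.

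Sox11 (chr12:27334264-27342574, minus strand) had the largest strain difference among the members in ESCs on the log2(normalized value + 1) scale. The rank depends on that scale, since the added 1 narrows the difference of genes at low values, such as Meis2 with a B6 mean of 1.89. It read 37.8, 38.6 and 32 in B41, B44 and B51 and 5.70, 5.38 and 4.15 in D29, D55 and DAC203. The strains lay far apart, with means of 36.1 ± 3.64 and 5.07 ± 0.820 (SD, n = 3 each), and the difference of -2.62 (SE 0.13, adjusted p = 1.51e-06, limma) is 6.13-fold on the value + 1 scale. In EpiLCs Sox11 was at 106, 88.7 and 120 in B6 and 51.3, 53.6 and 38.6 in D55, D29 and DAC203. The direction was kept with a smaller difference of -1.12 (SE 0.14, adjusted p = 5.83e-05, limma). The contrast between the states was 1.49 (SE 0.20, adjusted p = 5.07e-05, limma).

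Meis2 (chr2:115863064-116065839, minus strand) changed sides most. In ESCs it read 1.82, 1.76 and 2.09 in B6 and 19.96, 13.3 and 10.1 in D29, D55 and DAC203, a difference of 2.37 (SE 0.21, adjusted p = 5.39e-05, limma), or 5.17-fold on the value + 1 scale. In EpiLCs it read 21.3, 17.7 and 17.1 in B6 and, from lowest to highest, 3.02, 3.27 and 3.49 in D2. The difference was -2.20 (SE 0.11, adjusted p = 2.41e-08, limma), or 4.6-fold. The groups did not overlap in either state. The contrast between the states was -4.57 (SE 0.25, adjusted p = 8.73e-09, limma). Pax6 (chr2:105668900-105697364, plus strand), read in EpiLCs only, was low but separate, at 4.36, 4.02 and 4.43 in B6 and 2.04, 2.09 and 1.71 in D55, D29 and DAC203. Its difference was -0.84 (SE 0.12, adjusted p = 1.02e-04, limma).

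The genes of neural cell structure did not move as one. Map2 (chr1:66175273-66442583, plus strand) was higher in B6 in both states. B6 ESC lines read 8.26, 6.06 and 5.36 and D2 ESC lines 1.83, 2.52 and 3.36, a difference of -1.09 (SE 0.20, adjusted p = 0.00301, limma). B6 EpiLC lines read 24, 23.7 and 24.6 and D2 EpiLC lines, from lowest to highest, 11.6, 13.2 and 15. The difference was -0.82 (SE 0.099, adjusted p = 2.73e-05, limma). The Map2 contrast between the states was 0.27 with an adjusted p of 0.386 (limma). Ncam1 (chr9:49502136-49798925, minus strand) was the only member called higher in D2 in both states. It read 21.2, 23.5 and 19.8 in B6 ESCs and 31.9, 36.2 and 32.4 in D2 ESCs (0.62, SE 0.098, adjusted p = 0.00133, limma). In EpiLCs B6 lines read 11.5, 10.8 and 12.4 for Ncam1, far below D2 lines at 28.1, 28.4 and 32.4 from lowest to highest (1.28, SE 0.094, adjusted p = 4.33e-07, limma). The contrast between the states was 0.67 (SE 0.14, adjusted p = 0.00148, limma).

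Nes (chr3:87971078-87980451, plus strand) overlapped between the strains in both states. In ESCs it read 27.8, 19.2 and 16.8 in B6 and 27.2, 25.4 and 26.9 in D2, a difference of 0.33 (adjusted p = 0.133, limma) that was called at 0.53 (adjusted p = 0.0113, limma) without B41. In EpiLCs it read 90.3, 75.2 and 104 in B41, B44 and B51, 62.2 in D29, and 66.9 and 75.6 in the other D2 lines. It was called lower in D2 at -0.39 (SE 0.11, adjusted p = 0.0123, limma). Without B51 or without D29 that call was lost, at -0.27 and -0.32. The contrast between the states was -0.72 (SE 0.22, adjusted p = 0.0202, limma), and without the EpiLC library of B51 it was -0.61 and not called. In this strain comparison 6 of 7 members had a state contrast that passed, against 36% of all genes.

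**Figure D2:**
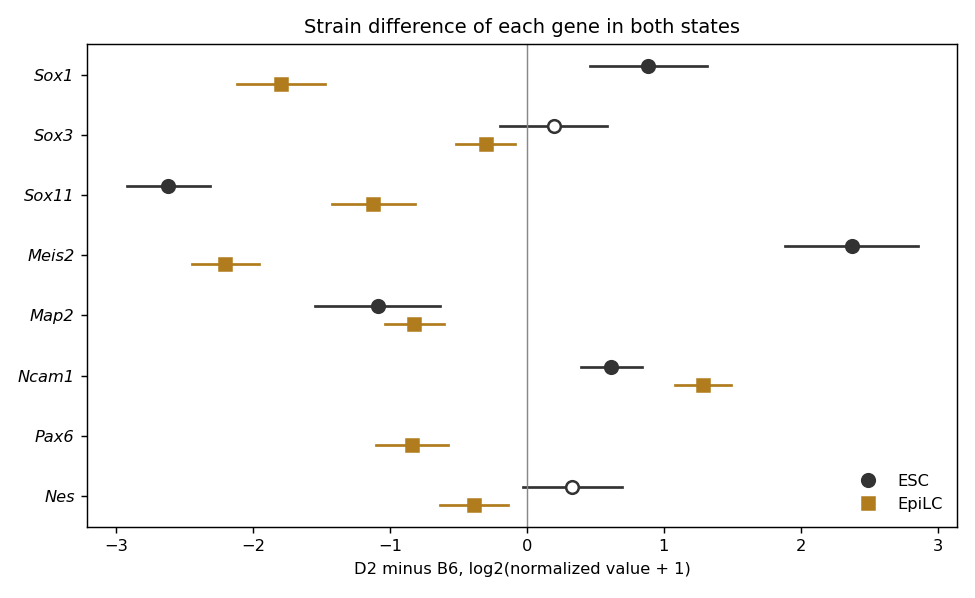
The D2 minus B6 difference of each gene on the log2(normalized value + 1) scale, with its 95% confidence interval from limma as a line. Circles are ESCs, squares EpiLCs, and open symbols were not called. Sox1 and Meis2 lie on opposite sides of 0 in the 2 states, Map2 and Sox11 lie left of 0 in both and Ncam1 right of 0 in both.

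Markers of other cells were read in the same bulk libraries, where fewer cells of a type and less RNA per cell cannot be told apart. In EpiLCs the summed level of primitive endoderm markers was 20.8 to 26.5 in B6 and 45.5 to 153 in D2, with 4 of the 5 markers listed called higher in D2, and that of feeder fibroblast markers was 81.8 to 105 in B6 and 107 to 165 in D2, with 3 of 8 listed markers called higher. In ESCs the feeder sums overlapped, at 1029 to 1323 in B6 and 1074 to 1491 in D2. ESC primitive endoderm sums were 94.7 to 119 and 134 to 154.4. Neural crest markers summed to 15.3 to 18.8 in B6 ESCs and 36.9 to 52.4 in D2 ESCs, and to 31 to 36.2 and 53.2 to 58.8 in EpiLCs. Of 11 neuroectoderm markers other than the members, 3 were listed in ESCs, namely Sox2, Sox21 and Msi1. They summed to 336 to 426 in B6 ESCs and 372 to 402 in D2 ESCs, which overlap. Most of that sum was Sox2, with means of 327 in B6 and 348 in D2. In EpiLCs the 5 listed were Sox2, Rfx4, Msi1, Fabp7 and Lix1. Their sums were 115 to 133 in B6 and 142 to 158 in D2, which do not overlap, with 3 called higher and 2 lower. Neuron markers summed to 223 to 239 in B6 ESCs and 145 to 176 in D2 ESCs, with 1 of 2 listed called lower, and to 122 to 133 and 119 to 129 in EpiLCs, with 1 of 6 listed called higher and 2 lower. The part of other cells in the strain differences of the members was not tested. Pluripotent epiblast markers, which the labelled cell types should hold, summed to 4822 to 5487 in B6 ESCs and 4377 to 4728 in D2 ESCs, which do not overlap, with 3 of 7 listed called higher and 2 lower. In EpiLCs they summed to 3116 to 3472 and 3191 to 3493, which overlap, with 6 of 8 listed called higher and 2 lower.

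Other genes of the same families, in 8 lists of 130 genes, showed no common side. In ESCs 24 of 72 listed and tested genes were higher in D2 and 18 lower, with a median of 0.07. In EpiLCs 32 of 83 were higher and 27 lower, with a median of 0.03. The PAX factors other than Pax6 had no tested member in either state. Among the TALE partners of MEIS2, 3 of 8 were higher and 4 lower in D2 ESCs. In EpiLCs 2 of 9 were higher and 2 lower.

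Of the neural plate transcription factors, 5 of 12 were higher and 3 lower in D2 ESCs. Olig2 and Olig1, bHLH factors of the oligodendrocyte lineage that lie next to each other, had the largest differences of all list genes, from 19.5 to 0.0129 (-4.34) and from 21.6 to 0.527 (-3.89) in ESCs. In EpiLCs Olig1 went from 17.7 to 0.0356 (-4.17) and Olig2 from 17.7 to 0.0478 (-4.15). Hesx1, a forebrain homeobox gene, fell from 9.58 to 1.99 in ESCs (-1.83). In EpiLCs 4 of 13 of these factors were higher and 4 lower.

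SOX factors other than the members gave 2 higher and 1 lower of 6 in ESCs, among them Sox21, from 2.29 to 8.73 (1.57), and 4 higher and 2 lower of 8 in EpiLCs, among them Sox9, from 1.48 to 5.50 (1.39). Neurofilament genes were higher in D2 ESCs: Nefm rose from 3.19 to 52.8 (3.64), Nefl from 8.89 to 70.6 (2.83) and Nefh from 9.49 to 36.7 (1.86), within a list of filaments and progenitor genes of which 5 of 9 were higher and 1 lower. In EpiLCs 4 of 12 of that list were higher, Vim among them (68.4 to 200.5, 1.53), and 7 lower, Prph among them (50.5 to 16.5, -1.57). Microtubule genes split 6 higher to 5 lower of 18 in ESCs, where Mapt, which encodes tau, fell from 57.4 to 16.1 (-1.83) and Dpysl3 from 81.6 to 21.4 (-1.91), and 7 to 6 of 18 in EpiLCs, where Dpysl2 fell from 43.6 to 14.4 (-1.52) and Dcx from 3.77 to 0.976 (-1.26).

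Adhesion molecules gave 2 higher and 2 lower of 8 in ESCs and 5 higher and 3 lower of 9 in EpiLCs. Cntn2, an adhesion molecule of axons, rose from 6.74 to 38.0 (2.33) in EpiLCs, and St8sia2, which builds polysialic acid on NCAM1, fell from 4.54 to 0.967 (-1.48). Notch and proneural genes gave 1 higher and 2 lower of 11 in ESCs and 6 higher and 3 lower of 14 in EpiLCs. All values in these 4 paragraphs are group means of 3 lines with log2 differences called by limma.

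F1 hybrid ESCs, which carry 1 genome of each parent, were read in a table of their own with the parents. Sox11 was at 15.7, 21.2 and 21.4 in F116, F117 and F124, between the parents and apart from both: F1 minus B6 was -0.87 (adjusted p = 0.00213, limma) and F1 minus D2 was 1.74 (adjusted p = 2.21e-05, limma). Meis2 was at 4.69, 6.11 and 6.66, also between the parents and called against each, at 1.23 from B6 (adjusted p = 0.00248, limma) and -1.14 from D2 (adjusted p = 0.0044, limma). Both comparisons share the F1 libraries, and 17.9% of all genes were called against B6 and 15.7% against D2.

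Sox1 in the F1 was at 6.02, 10.7 and 6.51 and was called against B6 (0.92, adjusted p = 0.0153, limma), as were Ncam1 at 37.7, 30.4 and 34.6 (0.64, adjusted p = 0.0017, limma) and Nes at 30.6, 28.8 and 28.1 (0.46, adjusted p = 0.0492, limma). None of these was called against D2. Map2 at 4.02, 4.72 and 3.98 and Sox3 at 0.795, 0.943 and 0.923 were called against neither parent. Against the mean of the parents on the log2 scale, 0 of 7 members were called, and 418 of 12700 genes (3.29%). At an unadjusted p under 0.05 there were 4 members, Sox1, Sox11, Ncam1 and Nes, of 2506 genes. For Sox11 the difference was 0.44 (adjusted p = 0.0836, limma) and for Ncam1 0.33 (adjusted p = 0.0659, limma). Ncam1 was called without DAC203 (0.32) or F117 (0.41), and Nes without B41 (0.40).

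Across the 33 BXD ESC lines the members spread beyond the parental lines to differing extents. Meis2 ran from 1.60 over a median of 6.15 to 36.6, and 5 lines were above and 2 below every parental line. Sox1 ran from 1.95 over 4.48 to 10.2, Sox3 from 0.259 over 1.44 to 6.06, Map2 from 0.903 over 3.44 to 7.31, Ncam1 from 11.8 over 20.2 to 39.7 and Nes from 13.6 over 24.5 to 38.1. Sox3 lay above every parental line in 17 BXD lines and below in 10, and Ncam1 below every parental line in 15. Map2 had no line above the parents and 2 below.

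In BXD EpiLCs the ranges were 1.92 to 69.5 for Sox1 (median 9.0), 10.5 to 63.1 for Sox3 (36.3), 18.3 to 138 for Sox11 (55.2), 1.12 to 25.1 for Meis2 (4.55), 3.91 to 24.4 for Map2 (13.5), 4.03 to 32.5 for Ncam1 (12.5), 0.642 to 6.25 for Pax6 (2.97) and 11.6 to 156 for Nes (40.3). More lines lay nearer D2, past the midpoint of the parents, than nearer B6 for 6 of the 8 members, with 27 of 33 lines for Sox1, 27 for Sox3, 23 for Sox11, 22 for Meis2, 26 for Map2 and 29 for Nes. Pax6 was about even with 16, and Ncam1 had 7. Nes lay below every parental line in 23 lines, Sox3 in 19, Map2 and Ncam1 in 12 each, Sox1 in 9, Sox11 in 8, and Meis2 and Pax6 in 6 each. Pax6 lay above every parental line in 9 lines and the other members in 0 to 2. Side counts thus also hold lines outside the parental range. D2 was the lower parent for all members but Ncam1, so a low level and nearness to D2 cannot be told apart. The share over all genes was not counted, so these counts are not read as particular to the members.

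Sox11 in ESCs fell into separate sets of BXD lines, with 15 lines at 1.84 to 6.22 (median 3.38) and 18 lines at 17.8 to 46.8 (median 25) and none between. Accessibility by ATAC-seq, which reads open chromatin through transposase insertion, split the lines at 2 regions near the gene. At the region over the Sox11 start site the low lines read 16 to 21.6 and the high lines 26.2 to 34.6. At a region centred 47.7 kb upstream of the start, outside any part of the gene (chr12:27389275-27391190), they read 1.59 to 4.20 and 11.7 to 24.4. The same 15 and 18 lines were low and high by RNA and by the distal region, with 0 discordant lines. The split was found in these values and is a description, and genotypes of the BXD lines were not used here.

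**Figure D3:**
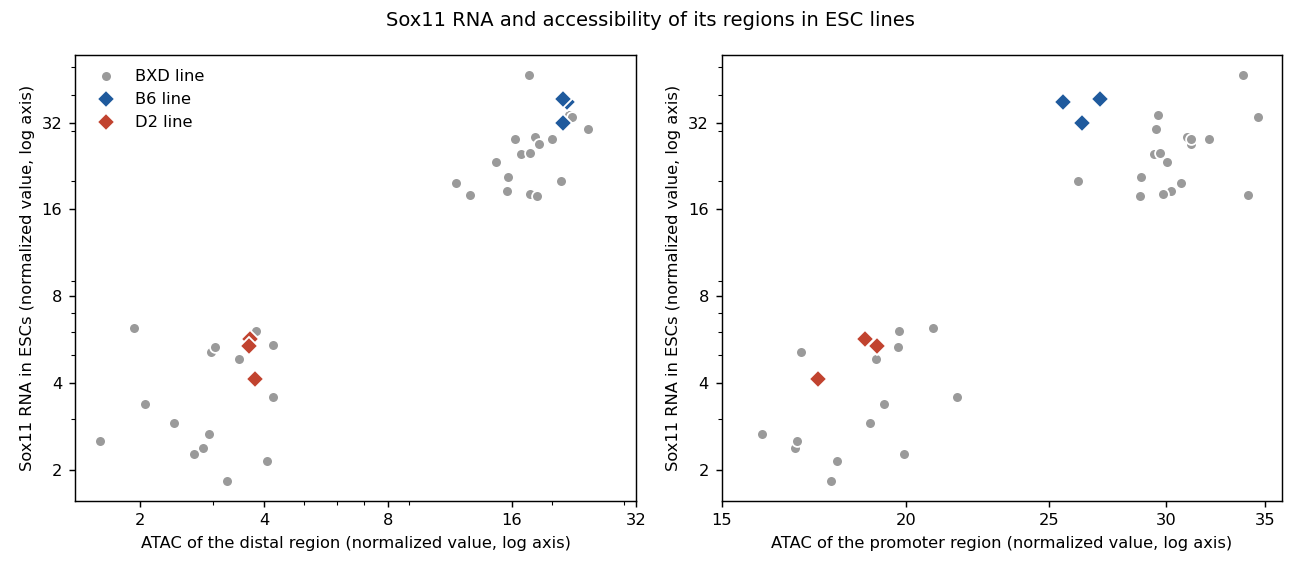
Sox11 RNA in ESC lines (normalized value, log axis) against ATAC signal (normalized value, log axis) of the region 47.7 kb upstream, left, and of the region over the start site, right. Grey points are BXD lines, blue diamonds B6 lines and red diamonds D2 lines. On the left 15 BXD lines lie with the D2 lines and 18 with the B6 lines, with none between.

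Because the lines form separate sets, the relation of Sox11 RNA with its distal region is given within each set. The sets were divided at a gap in these same values, which narrows the range of both measures, so these values cannot be set against a relation over all lines. Across the 18 high lines the distal region gave Pearson's r = 0.50 (permutation p = 0.033, adjusted p = 0.123 over 18 relations) and Spearman's rho = 0.54 (permutation p = 0.0228, adjusted p = 0.103), and r = 0.37 without the 2 outermost lines. Across the 15 low lines it gave r = 0.13 and rho = 0.13 (permutation p = 0.639 and 0.656). Of the 18 relations only that of Sox11 with Map2 RNA in the low lines was called. It gave r = 0.87 (permutation p = 7.00e-05, adjusted p = 0.00126) and rho = 0.82 (permutation p = 4.30e-04, adjusted p = 0.00774), and r = 0.82 without 2 lines. In the high lines it was r = 0.20 and rho = 0.18, and the difference between the sets was not tested. The EpiLC RNA of Sox11 was 18.3 to 59.7 in lines of the low set and 39.4 to 138 in lines of the high set, which overlap. Its relation with Sox11 RNA in ESCs gave rho = 0.68 (adjusted permutation p = 0.0609) in the low lines. In the high lines rho was 0.30 (adjusted permutation p = 0.322).

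The distal region was read in every chromatin assay of the parental lines. ESC ATAC was 21.8, 21.3 and 21.2 in B6 and 3.70, 3.68 and 3.80 in D2, a difference of -2.49 on the log2(value + 0.1) scale (SE 0.087, adjusted p = 1.26e-13, limma), the smallest p of the 59 regions near members. ChIP-seq of TRIM28, a co-repressor brought to DNA by KRAB zinc finger proteins, gave 14.6 ± 2.21 in B6 and 3.80 ± 0.625 in D2 (SD, n = 3 each) with a difference of -1.91 (adjusted p = 9.95e-13, limma). P300, an acetyltransferase of active enhancers, gave 47.6 ± 0.300 and 10.9 ± 1.69 (SD, n = 2 each; -2.03, adjusted p = 1.48e-12, limma). POU5F1, a core pluripotency factor also called OCT4, gave 53.1 ± 1.61 and 11.5 ± 2.13 (SD, n = 2 each; -2.12, adjusted p = 6.93e-25, limma). With 2 lines per strain such small p-values rest mostly on the spread pooled over regions.

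In EpiLCs a pair of ATAC regions overlaps the same stretch. The signal at chr12:27389196-27390087 was 4.95 in B6 and 1.88 in D2 (-1.35), and at chr12:27390150-27391116 it was 2.91 and 1.44 (-0.99). The sources used here do not say whether strain variants entered the mapping of D2 reads to the B6-derived genome, and the part of this in these differences was not tested. The centre of the first of these EpiLC regions, which the regions of all 5 assays cover, is shown (GRCm38, chr12:27389492-27389791, plus strand). The BXD lines part by the signal of the whole ESC region, and no signal was read for these 300 bases alone. At the first EpiLC region the low and high sets overlap, at 0.568 to 2.97 and 1.66 to 4.84. Capitals mark AAGGTCA, a binding element of some nuclear receptors.
Sox11 distal region: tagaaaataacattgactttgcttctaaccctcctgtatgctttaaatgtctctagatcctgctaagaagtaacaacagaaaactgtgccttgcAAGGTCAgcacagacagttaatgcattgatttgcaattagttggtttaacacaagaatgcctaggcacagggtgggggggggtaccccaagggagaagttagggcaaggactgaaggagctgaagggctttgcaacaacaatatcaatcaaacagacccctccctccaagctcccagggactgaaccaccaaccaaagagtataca
This is B6 reference sequence. Searched on both strands, AAGGTCA occurs 1 time in the window and 2 times in the 1916 bases of the whole ESC region, of which 30.3% are repeat-masked. ATGCAAAT, the octamer of POU factors, and CATTGT, a SOX core, have 0 matches in both. Of the central 300 bases of all 112226 ESC ATAC regions, 8.14% hold AAGGTCA, 3.12% ATGCAAAT and 16.5% CATTGT, and AAGGTCA was picked after the sequence had been seen. The window printed here does not lie at the centre of its ESC region, and no share was counted for whole regions.

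At the start site of Sox11 itself (chr12:27340607-27344119) the strain difference was smaller. ESC ATAC was 25.6, 27.1 and 26.3 in B6 and 18.8, 19.1 and 17.4 in D2 (-0.51, called by limma), and EpiLC ATAC went from 39.1 to 31.5 (-0.31), a call lost under quantile scaling (-0.10, adjusted p = 0.15). Over the start site P300 was 38.7 in B6 and 27.8 in D2 and POU5F1 27.8 and 18.9, and neither was called. P300 there was called under quantile scaling (-0.54, adjusted p = 0.0394, limma). The Sox11 and Meis2 promoters, the members with the widest ESC differences in opposite directions, are printed from RefSeq (GRCm38.p6, 250 bases before to 50 after the start, minus strand; chr12:27342669-27342968 and chr2:116064570-116064869). Capitals mark GGGCGG (GC box) and CCAAT, or their reverse complements.
Sox11 promoter: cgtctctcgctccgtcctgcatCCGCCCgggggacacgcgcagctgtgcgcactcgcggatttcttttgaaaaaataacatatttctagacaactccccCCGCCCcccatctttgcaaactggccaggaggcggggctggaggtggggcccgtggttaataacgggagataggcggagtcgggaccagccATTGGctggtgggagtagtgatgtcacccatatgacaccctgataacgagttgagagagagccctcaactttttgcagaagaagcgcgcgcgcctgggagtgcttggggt
Meis2 promoter: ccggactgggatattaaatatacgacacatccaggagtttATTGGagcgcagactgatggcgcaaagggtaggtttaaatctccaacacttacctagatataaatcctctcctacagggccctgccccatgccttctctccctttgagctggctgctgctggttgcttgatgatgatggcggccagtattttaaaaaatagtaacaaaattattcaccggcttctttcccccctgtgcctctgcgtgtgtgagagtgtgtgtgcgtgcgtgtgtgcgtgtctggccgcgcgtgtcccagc
The Sox11 promoter holds GGGCGG 2 times and CCAAT 1 time, and the Meis2 promoter holds GGGCGG 0 times and CCAAT 1 time. Of 32851 promoters of this length, 35.7% hold GGGCGG and 37.4% CCAAT, and 6 of the 8 members have a promoter in the table.

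Of the 59 ESC ATAC regions within 50 kb of a member's start site, 6 were called higher and 21 lower in D2, against 22.2% and 24.7% of 112226 regions. In EpiLCs 4 of 58 were higher and 39 lower, against 25.6% and 32.6% of 100415 regions. The lower calls in ESCs included 6 of 7 regions near Pax6, 6 of 10 near Map2 and 4 of 6 near Sox11. Sox1 had 3 higher and 2 lower of 11, Nes 2 higher and 1 lower of 15, and Sox3 none called of 2. In EpiLCs all 6 regions near Meis2, 8 of 10 near Sox1 and 7 of 12 near Nes were lower.

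**Figure D4:**
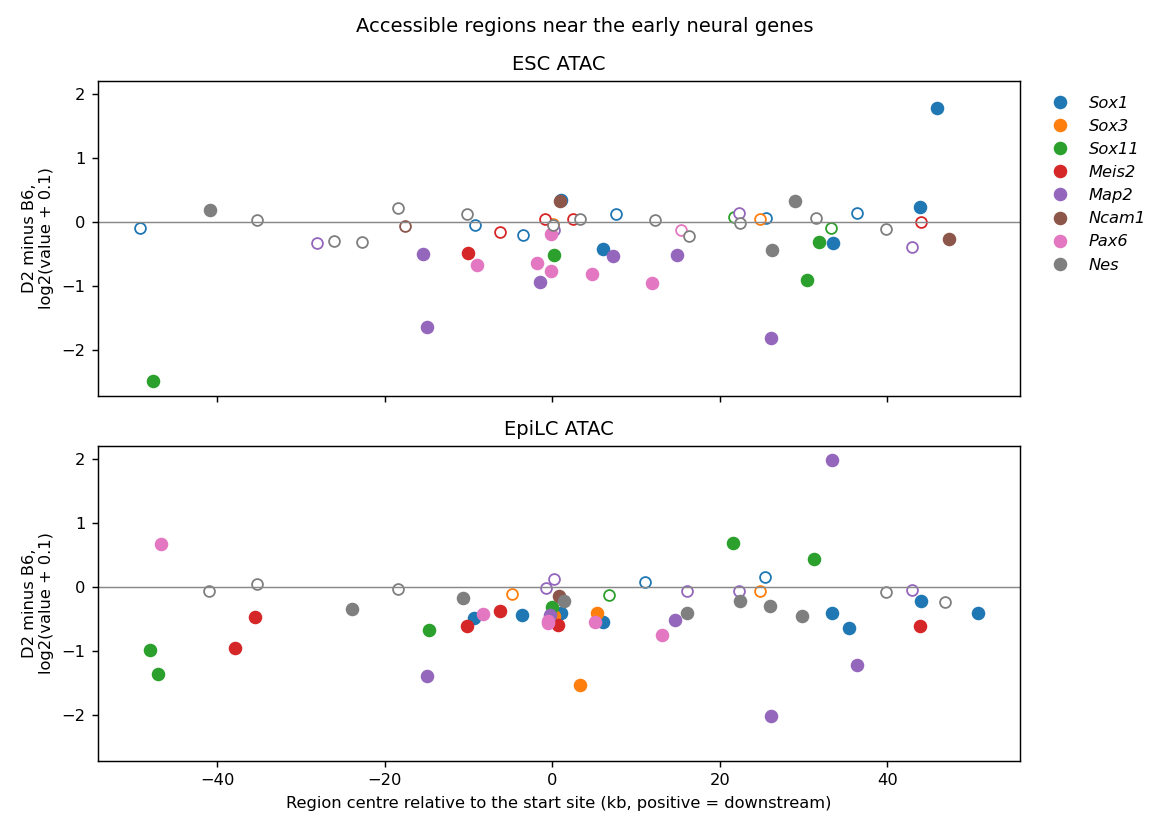
ATAC strain differences, D2 minus B6 on the log2(value + 0.1) scale, of regions within 50 kb of a member's start site, by the distance of the region's centre from that start in kb. The upper panel shows 59 regions in ESCs and the lower 58 in EpiLCs, colours give the gene and filled points were called by limma. Most filled points lie below 0, and the Sox11 region 47.7 kb upstream is the lowest in ESCs.

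At the start sites of the 8 genes, 2 regions were called higher and 2 lower in D2 ESCs, and all 8 were called lower in D2 EpiLCs. Of all regions 22.2% were called higher and 24.7% lower in ESCs, and 32.6% lower in EpiLCs. The share over the start-site regions of all genes was not counted, so these counts are not read as particular to the members. Under quantile scaling the ESC counts were the same. In EpiLCs 5 were then still called lower, and the median of the 8 went from -0.42 to -0.21. The calls at Sox11, Nes and Ncam1 were lost, and Ncam1 turned to 0.07. The Ncam1 call in EpiLCs was also lost without B44, D29, D55 or DAC203 (-0.14 to -0.09), and the Pax6 call in ESCs (-0.18) without B41, B44, D55 or DAC203 (-0.17 to -0.14). The Sox1 start region was higher in D2 ESCs, from 19.8 to 25.3 (0.35), and lower in D2 EpiLCs, from 38.6 to 29.1 (-0.41). Meis2, whose RNA differed most in ESCs towards D2, had no call at its start region there (44.4 in B6 and 46.1 in D2), while in EpiLCs its region went from 117.5 to 78.0 (-0.59). The Pax6 start region went from 72.3 to 49.1 in EpiLCs (-0.56) and that of Sox3 from 31.4 to 23 (-0.45). Ncam1 was higher in D2 at its start in ESCs, from 27.5 to 34.8 by ATAC (0.33) and from 56.6 to 92.4 by P300 (0.70, adjusted p = 0.00182, limma). The P300 call was lost without B41 (0.64) and without B51 (0.75).

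Away from the start sites, the regions with the smallest p-values lay near Map2, Pax6, Sox3 and Sox11. An intronic region of Map2 (chr1:66277468-66278167) went from 5.39 in B6 to 1.47 in D2 by ESC ATAC (-1.81), from 5.68 to 1.33 at chr1:66277405-66278212 by EpiLC ATAC (-2.02) and from 4.07 to 1.48 by TRIM28 (-1.39). Another Map2 intron (chr1:66348883-66350454) went from 14.5 to 5.49 in EpiLCs (-1.39). An intron of Pax6 (chr2:105687085-105689000) went from 11.8 to 6.07 in ESCs, where the RNA of the gene is not listed. A region 3.33 kb downstream of the Sox3 start (chrX:60889447-60890759) went from 9.77 to 3.32 in EpiLCs (-1.53).

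TRIM28 had 9 of 39 regions called near members, 3 higher and 6 lower, against 38.1% of all regions (19.7% higher and 18.4% lower). Besides the Sox11 and Map2 regions already given, TRIM28 fell at chr12:27324044-27325048 near Sox11 from 3.71 to 0.902 (-1.97) and at chr2:116105953-116107750 upstream of Meis2 from 8.75 to 3.35 (-1.34), and rose at chr8:12441897-12443547 near Sox1 from 4.02 to 7.45 (0.88). P300 had 2 of 27 called, against 11.3%, at the Sox11 distal region and the Ncam1 start. The count was 1 without B41 or without B51 and 5 without D55, the Pax6 start region among the 5 (-1.11, adjusted p = 0.00227, limma). POU5F1 had 4 of 24, against 10.8%, and 2 without B51 or without D29 and 1 without D55. With all lines those were 3 regions near Sox11 and an intron of Map2 (chr1:66265972-66266941, 13.2 to 6.09). Of these only the distal Sox11 call was kept by limma without trend and robust fitting.

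Over the 33 BXD lines, RNA and accessibility of the same gene were related at 9 of 52 regions in ESCs and 19 of 58 in EpiLCs (adjusted p under 0.05 over those relations, Spearman). The share over all genes and their nearby regions was not counted, so these counts are not read as particular to the members. For Sox1 in ESCs the relation was closest 7.57 kb downstream of the start (chr8:12402570-12403163), with r = 0.66 and rho = 0.70 (permutation p = 3.00e-05 and 1.0e-05, the latter the smallest that 100000 shuffles can give; adjusted p = 3.90e-04 and 1.73e-04), and r = 0.58 without the 2 outermost lines. For Meis2 in ESCs a region reaching its furthest upstream start (chr2:116065100-116068233) gave r = 0.68 and rho = 0.69 (permutation p = 3.00e-05 and 2.00e-05, adjusted p = 3.90e-04 and 2.60e-04), and r = 0.66 without 2 lines. The Nes start region gave r = 0.54 and rho = 0.55 in ESCs (permutation p = 0.00111 and 7.30e-04, adjusted p = 0.00812 and 0.00542; r = 0.55 without 2 lines).

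In EpiLCs the Sox3 region 3.33 kb downstream gave r = 0.57 and rho = 0.58 (permutation p = 4.30e-04 and 4.80e-04, adjusted p = 0.00277 and 0.00384; r = 0.48 without 2 lines). The Sox11 distal region gave r = 0.77 and rho = 0.72 (permutation p = 1.0e-05 for both, adjusted p = 5.80e-04 for both; r = 0.72 without 2 lines). This is over all lines, and the low and high sets by ESC values had EpiLC medians of 1.65 and 3.24 at this region. Their EpiLC Sox11 RNA medians were 38.3 and 76.1, and the EpiLC relation within each set was not tested. The Map2 start region gave r = 0.64 and rho = 0.59 (permutation p = 1.10e-04 and 4.40e-04, adjusted p = 0.00106 and 0.00384; r = 0.67 without 2 lines). Sox1 had 4 related regions, Map2 4 and Nes 6, and Sox3, Meis2 and Pax6 1 each. Each RNA and ATAC library pair shares 1 line, so any difference between lines enters both.

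Pairs of members were related over the BXD lines in both states. In EpiLCs 20 of 28 pairs passed, 18 of them positive, where 45.9% of all gene pairs reached the absolute rho of the weakest of them and 23.1% did so with a positive sign. In ESCs 6 of 21 passed, where 15.5% of all pairs did and 8.2% with a positive sign, and under quantile scaling 4. The difference between the states was not tested. The closest EpiLC pair was Sox3 with Sox11, with r = 0.85 and rho = 0.84 (permutation p = 1.0e-05 and adjusted p = 4.67e-05 and 5.60e-05; r = 0.81 without 2 lines). Sox1 with Sox11 gave r = 0.71 and rho = 0.74 and Sox11 with Nes r = 0.73 and rho = 0.72 at the same permutation p, with r = 0.63 and 0.69 without 2 lines.

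The 2 negative pairs that passed in EpiLCs both held Pax6. It was lower where Ncam1 was higher, with r = -0.55 and rho = -0.59 (permutation p = 0.00109 and 4.90e-04, adjusted p = 0.00203 and 0.00114; r = -0.55 without 2 lines), and where Nes was higher, with r = -0.56 and rho = -0.50 (permutation p = 7.30e-04 and 0.00342, adjusted p = 0.0017 and 0.00684; r = -0.46 without 2 lines). Primitive endoderm markers moved along these relations. Their summed level, 5.65 to 82.6 over the BXD EpiLC lines, gave rho = 0.74 with Nes, 0.72 with Ncam1, 0.51 with Sox11, 0.45 with Sox3 and -0.63 with Pax6 (adjusted permutation p from 1.5e-04 to 0.0264 over 30 relations; Pearson's r = 0.70, 0.72, 0.51, 0.46 and -0.63). With Sox1 it gave rho = 0.29 and with Meis2 -0.03, neither called. Map2 was called by r = 0.46 (adjusted permutation p = 0.0196) but not by rho = 0.36 (adjusted permutation p = 0.0829). Feeder fibroblast markers, 44.1 to 543, gave rho = 0.61 with Ncam1, 0.58 with Nes, 0.55 with Sox3 and 0.44 with Sox11, and their part in the relations between members was not tested.

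In ESCs the called pairs without Sox11 were all negative. Meis2 with Map2 gave r = -0.57 and rho = -0.53 (permutation p = 5.80e-04 and 0.00179, adjusted p = 0.0122 and 0.0134; r = -0.50 without 2 lines), and Sox3 with Meis2 r = -0.53 and rho = -0.53 (permutation p = 0.00187 and 0.00191, adjusted p = 0.0193 and 0.0134; r = -0.57 without 2 lines). Sox1 with Nes gave r = -0.50 and rho = -0.48 (permutation p = 0.0032 and 0.00471, adjusted p = 0.0193 and 0.0247; r = -0.47 without 2 lines). Ncam1 in ESCs followed the feeder markers, whose sum ran from 480 to 5325 over the lines. It gave r = 0.61 and rho = 0.63 (permutation p = 2.20e-04 and 1.5e-04, adjusted p = 0.00165 and 0.00112), and r = 0.47 without 2 lines. Sox3 in ESCs was lower where primitive endoderm markers were higher, with r = -0.53 and rho = -0.54 (permutation p = 0.00173 and 0.00153, adjusted p = 0.00865 and 0.00574). Sox11 gave r = -0.47 (adjusted permutation p = 0.018) and rho = -0.39 (adjusted permutation p = 0.0619) with these markers. The part of other cells in the ESC pairs was not tested.

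The level of a gene in a line's ESCs was related to its level in that line's EpiLCs for 3 of 7 members, and the share over all genes was not counted. Map2 gave r = 0.48 and rho = 0.50 (permutation p = 0.00513 and 0.00325, adjusted p = 0.018 and 0.0087; r = 0.44 without 2 lines) and Sox3 rho = 0.50 (permutation p = 0.00373, adjusted p = 0.0087) with r = 0.39 (permutation p = 0.027, adjusted p = 0.063). The third was Sox11, described by its sets. Sox1, Meis2, Ncam1 and Nes were not called, with r = -0.02, -0.27, -0.20 and 0.07 (permutation p = 0.921, 0.128, 0.274 and 0.678; rho = -0.07, -0.24, -0.16 and 0.08).

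Genes whose profile over the 33 BXD lines was most like a member's are given as a description, by Pearson's r over 12729 genes. In ESCs these were C77080 for Sox1 (0.83), Stk26 for Sox3 (0.85), Epha4 and Gata3 for Meis2 (0.82 and 0.79), Sema3e for Map2 (0.74), Cux1 for Ncam1 (0.76) and Rhpn2 for Nes (0.70). Stk26 lies on the X chromosome with Sox3. In EpiLCs they were Dgat2 for Sox1 (0.86), Tmem132a and Kif5c for Sox3 (0.91 and 0.90), Rnf144a and Vash2 for Sox11 (0.95 and 0.94), Rnf122 for Map2 (0.90), Sema3f for Ncam1 (0.88), Dync1li1 for Pax6 (0.81) and Mmp15 for Nes (0.93). Ttc21b stood among the nearest 3 of Map2 in both states, at 0.73 and 0.87. Rnf144a lies on chromosome 12 with Sox11.

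The EB library held 20134 cell barcodes, of which 12942 passed the filters and carried a single lipid hash, the barcode given to each EB sample before pooling. Barcodes with several hashes, 4242 in all, were taken as doublets and left out. The labels say only that B6 and D2 were mixed, so hashes are grouped here by the first letter of their names in the deposited table: B1 to B3 with 2989 cells, D1, D2, D31, D32, D331, D332 and D333 with 7857 cells, and C1 and CB with 2096 cells. That B and D stand for the strains is not stated, the hash named D2 is not the strain, and what C means is not given. Whether hashes are separate cultures is not given either, so p-values measure the spread between hashes. Median depth was 30638 to 39604 UMIs per cell over the hashes. By edgeR over 14365 genes 71% were called between B- and D-named hashes, 35.5% higher in each, so a call in either direction is common.

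All 8 members were called higher in the B-named hashes, against 35.5% of all genes. For each of them the 3 B values lay above all 7 D values. The share of all genes with such a separation was not counted, so it is not read as particular to the members. Sox1 was rare, at 0.0184, 0.0111 and 0.0115 UMIs per 10000 in B1, B2 and B3 and from 0.000225 over a median of 0.000689 to 0.00224 in the D hashes. It rests on 150 UMIs in B, 26 in D and 22 in C cells, and the difference was 3.91 on the log2 scale (SE 0.38, adjusted p = 1.10e-06, edgeR). Pax6 was as rare, with 139, 35 and 16 UMIs, at 0.0208, 0.0079 and 0.00841 in B hashes and 0.000427 over 0.000965 to 0.00205 in D hashes (3.37, SE 0.38, adjusted p = 4.19e-06, edgeR). That is a ratio of 10.3, and without hash B1 the difference was 2.76, a ratio of 6.77, and was still called. Map2 with 304 UMIs in all was at 0.00769, 0.0151 and 0.0171 in B and 0.00292 over 0.00434 to 0.00597 in D (1.56, SE 0.28, adjusted p = 2.30e-04, edgeR).

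Nes was abundant and narrow in the B hashes, at 0.829, 0.836 and 0.838 per 10000, against 0.196 over 0.207 to 0.292 in D (1.85, SE 0.11, adjusted p = 5.20e-08, edgeR). Sox3 was at 0.160, 0.147 and 0.157 in B and 0.0299 over 0.0365 to 0.0783 in D (1.82, SE 0.24, adjusted p = 5.18e-05, edgeR), the hash named D2 holding the highest D value. Ncam1 was at 0.431, 0.506 and 0.455 in B and 0.123 over 0.170 to 0.219 in D (1.44, SE 0.14, adjusted p = 2.77e-06, edgeR). Meis2 was at 0.567, 0.539 and 0.471 in B and 0.206 over 0.282 to 0.317 in D (0.91, SE 0.11, adjusted p = 1.18e-05, edgeR). Sox11 differed least, at 2.06, 1.87 and 1.89 in B and 1.16 over 1.44 to 1.5 in D (0.41, SE 0.065, adjusted p = 1.24e-04, edgeR).

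In the C-named hashes, which entered no test, Sox11 (2.37 in C1 and 1.95 in CB), Sox3 (0.147 and 0.184), Meis2 (0.827 and 0.462) and Nes (0.782 and 0.738) stood at or near the B values or above them. Ncam1 (0.180 and 0.164), Map2 (0.00453 and 0.00494) and Pax6 (0.00348 and 0.00148) in C hashes stood within or near the D range, and Sox1 (0.00453 and 0.00222) at or above its upper end.

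**Figure D5:**
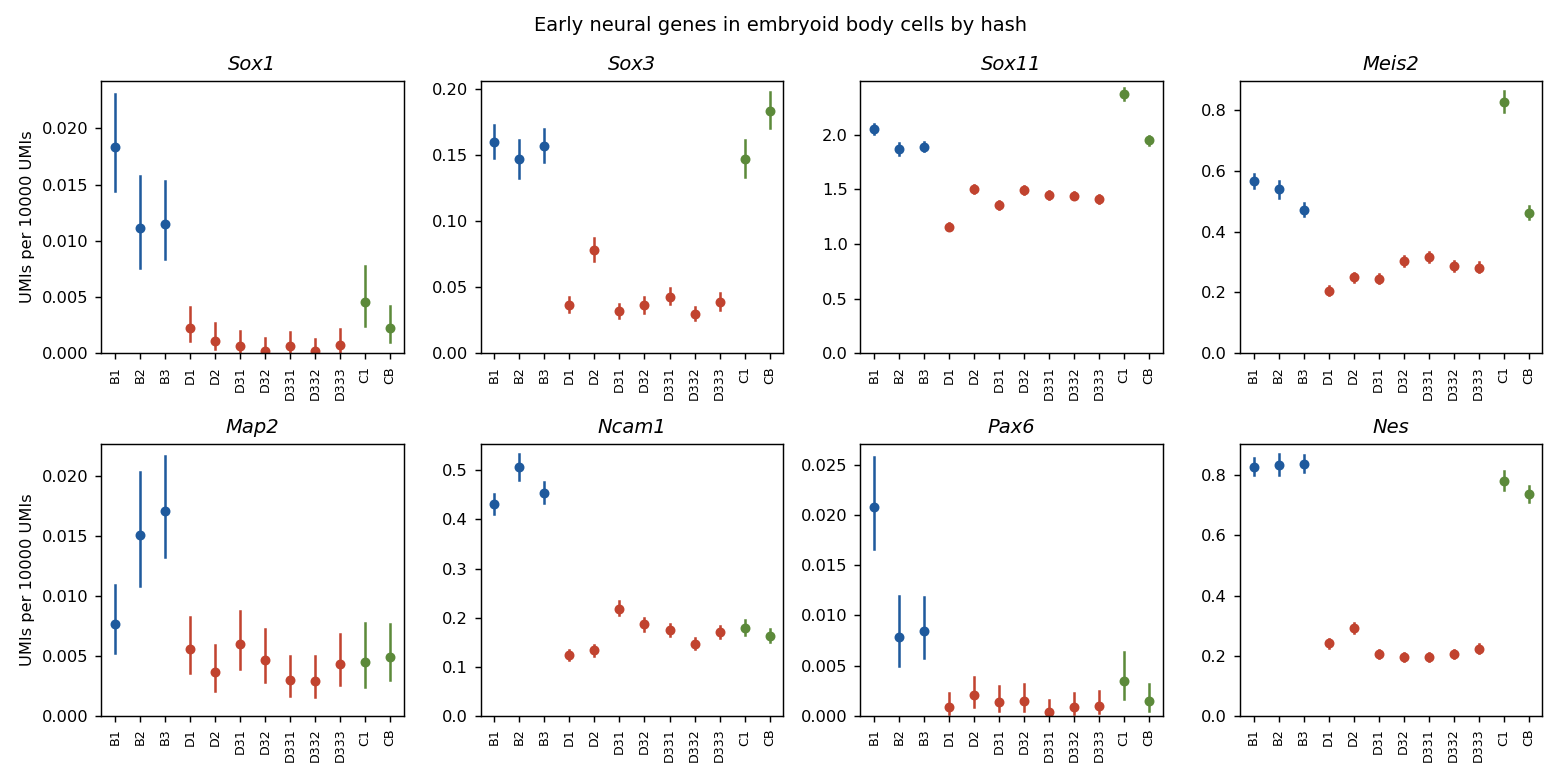
UMIs of each gene per 10000 UMIs in the cells of each of the 12 hashes, with exact 95% Poisson intervals that cover counting error only. Blue marks B-named, red D-named and green C-named hashes. For every gene the 3 blue points lie above the 7 red ones, and Sox1, Pax6 and Map2 lie below 0.025 per 10000 throughout.

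Few cells carried most of the Sox1 and Pax6 UMIs. Cells were clustered without the 8 members, and 1 of 27 clusters, led by Crabp1, Ptn, Fabp7, Crabp2 and Zic1 and with Fabp7, Zic1 and Hes5 of the neuroectoderm markers among its 10 leading genes, is called neuroectoderm-like. It held 160 cells, 1.24% of all, with a median of 19335 UMIs. It held 140 of 198 Sox1 UMIs (70.7%, exact 95% interval 63.8% to 76.9%), 104 of 190 Pax6 UMIs (54.7%, 47.4% to 62%) and 79 of 304 Map2 UMIs (26%, 21.1% to 31.3%). Its part of the other members was 4.24% for Nes, 3.91% for Meis2, 2.84% for Sox3, 2.50% for Sox11 and 0.952% for Ncam1. With each cell thinned to 10000 UMIs, which leaves out shallower cells, the cluster was 1.13% of cells and held 78.1% of the UMIs of Sox1, 6.31% of Nes, 4.93% of Meis2, 4.09% of Sox11, 3.63% of Sox3 and 1.29% of Ncam1. These intervals cover counting error only, and a cluster against the rest is a description, with no test.

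Within the neuroectoderm-like cluster a Sox1 UMI was found in 46.9% of cells, Sox3 in 35%, Sox11 in 93.8%, Meis2 in 81.3%, Map2 in 25.6%, Ncam1 in 38.8%, Pax6 in 30% and Nes in 81.3%. In the erythroid-like cluster of 159 cells (median 28079 UMIs), which should lack these genes, the shares were 0% for Sox1 and Pax6, 1.89% for Sox3, 23.9% for Sox11, 5.03% for Meis2, 2.52% for Map2, 8.18% for Ncam1 and 22% for Nes. A count of 0 of 159 cells allows a share of up to 2.29% by the exact interval. Sox1 and Pax6 occurred together in 32 cells of the neuroectoderm-like cluster and in 1 of 12782 other cells. At least 5 of the 8 members had a UMI in 75 of its cells (46.9%) and in 430 other cells (3.36%).

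The cluster came mostly from B-named hashes, with 142 B cells (4.75%), 7 D cells (0.0891%) and 11 C cells (0.525%). By hash it was 5.17%, 5.06% and 4.07% of the cells of B1, B2 and B3 and at most 0.254% of those of a D hash. Of the 27 clusters, 20 drew over 90% of their cells from 1 letter, and in those cell type and letter cannot be told apart. Without the neuroectoderm-like cluster the B minus D difference was 2.37 for Sox1 and 1.60 for Pax6, both still called, and 0.63 for Map2 (adjusted p = 0.101, edgeR), not called. Nes (1.76), Sox3 (1.79), Ncam1 (1.46), Meis2 (0.79) and Sox11 (0.34) were still called. This alternative was chosen after seeing the data.

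The abundant members were spread over other clusters. Meis2 was highest, at 2.41 per 10000 and in 90.8% of cells, in a cluster of 141 cells led by Arg1, Foxd1 and Meox1, genes that include markers of paraxial mesoderm, against 1.97 in the neuroectoderm-like cells. Sox11 was at 3.52 there and 5.45 in the neuroectoderm-like cells. Ncam1 was at 1.02 and Nes at 1.26 in a cluster of 295 cells led by Spp1 and Acta2, of which 290 were B-named. With cells thinned to 10000 UMIs, a Nes UMI was found in 60.3% of that cluster and in 82.5% of the neuroectoderm-like cells. For Ncam1 these shares were 53.8% and 24.1%. Sox3 reached 0.434 in a cluster of 420 cells led by Lum, of which 415 were C-named, and was at 0.325 in the neuroectoderm-like cells.

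With each cell thinned to 10000 UMIs, which left out 809 shallower cells (252 B, 354 D and 203 C), a Nes UMI was found in 48.4% of B, 17.5% of D and 37.1% of C cells. Sox1 was found in 1.64%, 0.12% and 0.264% of them, Sox3 in 9.02%, 3.31% and 8.29%, Sox11 in 68%, 63.6% and 67.3% and Ncam1 in 29.8%, 14.3% and 13.5%. Before thinning, the shares per hash were 72.8% to 75.2% in B and 37.7% to 53.0% in D for Nes and 82.2% to 83.5% in B and 82.7% to 88.9% in D for Sox11, so that the unthinned Sox11 share goes against its UMIs per 10000 and gives no order.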

How the data were processed

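RNA-seq, ATAC-seq, ChIP-seq (TRIM28, P300, POU5F1) and 1 hashed single-cell library of embryoid bodies make up the 180 samples, of which the input libraries and the ATAC table with F1 lines were not used. The authors deposited RNA, ATAC and ChIP tables as a normalized signal per gene or region, made with mm10, HISAT2 2.0.5, Bowtie 1.0.0, Cell Ranger and MACS 1.4.2 in roles that the submitters' processing notes leave out. The sources used here do not name the counting tool or annotation. The deposited ATAC and TRIM28 signal was in whole multiples of a step per library for 100% of values (tolerance 0.01), which gave 16277662 to 24346475 reads in regions for parental ATAC and 5634327 to 6872995 for TRIM28, apart from D55 with 17092029. Embryoid body and hash tables are UMI counts, as the authors deposited them.

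Strains were compared with limma 3.58.1 (R 4.3.3; trend and robust) on log2(value + pseudocount), with 0.1 for ATAC and TRIM28 and 1 for the other assays, over all features, of which RNA genes needed a mean of 0.5. BXD relations used 100000 shuffles. A line set was called separate where the largest gap passed 0.2 of the log2 range with at least 6 lines on each side. Regions within 50 kb of a start site (GENCODE annotation of GRCm38) were assigned to a member. Cells with at least 1000 UMIs, 500 genes and at most 20% mitochondrial UMIs were used, and UMI sums per hash were tested with edgeR 4.0.16. The tests were checked on simulated data.

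Replicate numbers in the titles did not pair B6 with D2 libraries, since the correlations of same-numbered deviations were not all above 0.1 (-0.283, -0.391 and -0.0738 for ESC RNA). The same lines were used as ESCs and EpiLCs, so the line was a block in an alternative to the contrast between states.

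The members and lists were chosen with earlier results of these data known. Genes named were the members, the 10 list genes with the largest called difference per state, the 3 genes most alike to each member over BXD lines, each member's start-site region and the 5 regions with the smallest adjusted p per assay. A few genes that these rules select are not reported here. Regions of other ranks that are named were chosen after their values were seen.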

Additional observations from a re-analysis of the deposited data

Results flagged for a closer look

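Values of 2 hashes stood apart from the other D-named hashes. Sox3 in the hash named D2 was at 0.0783 UMIs per 10000, with the other 6 D-named hashes at or below 0.0427. Sox11 in the hash named D1 was at 1.16 per 10000, below the other 6. The gap to the nearest hash exceeded the 95% critical value of Dixon's test in both, among 8 groups tested, where chance gives about 1 in 20.

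The strain difference of 6 members differed between ESCs and EpiLCs by the limma test of that contrast, for which 36% of 11745 genes were called. The EpiLC minus ESC value was -2.68 for Sox1, -0.50 for Sox3, 1.49 for Sox11, -4.57 for Meis2, 0.67 for Ncam1 and -0.72 for Nes. For Sox1 and Meis2 the strains were called in opposite directions in the 2 states. For Sox11 and Ncam1 they were called in the same direction with different sizes. The Sox3 call was lost with the replicate number or the line as a block and without several single libraries. The Nes call was lost without the EpiLC library of B51.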

How the results depend on the processing

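Most results kept their direction and their side of the threshold: 1060 of the values for single genes and regions under an alternative, with 45 no longer called, 7 newly called, 23 of the other sign and 5 moved, and 134 of the counts, with 19 moved. Calls by leaving out 1 library each ranged from 5 to 6 members for ESC RNA (5 with all), 6 to 8 for EpiLC RNA (8), 4 to 6 for the contrast between states (6), 0 to 1 for F1 against the parental mean (0; 1 without B41, without DAC203 or without F117), 23 to 26 regions for ESC ATAC (27), 39 to 43 for EpiLC ATAC (43), 8 to 10 for TRIM28 (9), 1 to 5 for P300 (2; 1 without B41 or B51, 5 without D55) and 1 to 4 for POU5F1 (4; 2 without B51 or D29, 1 without D55), and 8 to 8 members for the EB hashes (8). With a window of 20 kb the region counts were 16, 24, 2, 1 and 2 in ESC ATAC, EpiLC ATAC, TRIM28, P300 and POU5F1, fewer regions being in reach. With regions of at least the median signal they were 5 for TRIM28 and 2 for POU5F1, and without trend and robust fitting 1 for P300 and 1 for POU5F1; the cause was not tested. Thinning to 10000 UMIs moved the neuroectoderm-like share of UMIs to 78.1% for Sox1, 3.63% for Sox3, 4.09% for Sox11, 4.93% for Meis2, 1.29% for Ncam1 and 6.31% for Nes.

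A block of the replicate number gave 5 members in ESCs, 8 in EpiLCs and 5 in the contrast between states, where Sox3 had an adjusted p of 0.0515 (limma), and 23, 42, 10, 2 and 4 regions in the order above; with the line as a block the contrast gave 5, and the block of the replicate number also ended the start-site calls of Pax6 in ESCs and Ncam1 in EpiLCs and no other call of a named gene or region. With the number in the hash name as a block all 8 members were called.

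The values of the other sign, none called on either side but for Ncam1 ATAC in EpiLCs, were as follows. F1 against the parental mean gave -0.066 (without DAC203) and -0.048 (without F124) for Meis2 and -0.031, -0.051 and -0.037 (without B51, D29 and F117) for Map2. ESC ATAC start regions gave -0.0093 (quantile scaling) and -0.0017 (without D29) for Meis2, 0.0068 (without D29) for Nes, and 0.0071 and 0.027 (without B44 and D55) for Sox3. Ncam1 ATAC in EpiLCs gave 0.067 under quantile scaling. TRIM28 start regions gave -0.115, -0.029, -0.073 and -0.021 (without D55, B41, D29 and B44) for Map2, -0.029 (quantile scaling), -0.0013, -0.105 and -0.027 (without D55, D29 and B44) for Nes, and -0.0075 and -0.082 (without DAC203 and B44) for Pax6. P300 at Nes gave 0.079 without B41 and POU5F1 at Sox1 -0.0395 without D29. By edgeR on the recovered reads 54479, 57245 and 37194 regions of all were called in ESC ATAC, EpiLC ATAC and TRIM28, and 29, 40 and 9 near members. The RNA depth is unknown, and P300 and POU5F1 with 2 lines per strain limit what their counts can show.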
